A study of Rattus norvegicus with 6 samples.

Results

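Cytochrome P450 genes of families 1 to 4, the enzymes that oxidise drugs, steroids, fatty acids and other lipophilic compounds, were followed in rat liver tissue (Rattus norvegicus) with and without transarterial embolization. Genes were chosen by symbol: 42 rows of the deposited table carried a symbol of these families once the Cyp2c and Cyp4a rows (12) were set aside. Of these, 5 had no count in any library (Cyp2b15, Cyp2b21, Cyp2g1, Cyp2j16 and Cyp2w1), which left 37 genes of 32623 in the table, in 18 subfamilies. A filter on low counts kept 31 of the 37 among the 14499 genes tested, and the other 6 are described by their counts.

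RNA was sequenced in 6 libraries, 3 labelled HCC and 3 labelled TAE. The HCC group comes from a study of hepatocellular carcinoma and was left untreated as the control, and the TAE group had transarterial embolization, the blocking of arteries that supply a tumour. Both groups are labelled as liver, and strain, sex, age, the way tumours arose, and whether tumour or surrounding tissue was taken are not stated in the labels used here. The labels number the replicates as biosamples without naming separate animals, so p-values speak only to the variation among these libraries, which may be technical.

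P450 enzymes of these families are heme proteins of the endoplasmic reticulum that take electrons from P450 reductase and insert oxygen into their substrates. Families 1, 2 and 3 carry most of the hepatic metabolism of drugs and steroids, and family 4 mostly hydroxylates fatty acids and eicosanoids. Hepatocytes hold most of this expression in liver, many of the genes are higher around the central vein, and several rat genes differ between the sexes or are induced through the receptors AHR, CAR and PXR. Inflammation is known to lower many of them.

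The libraries of the TAE group differed among themselves. Total counts ran from 13448286 to 16604067 per library. Across tested genes, log2 CPM values (counts per library total) correlated at 0.984 to 0.991 between HCC libraries but at 0.935 to 0.969 between TAE libraries, and TAE replicate 2 correlated at 0.967 to 0.969 with the HCC libraries. Hepatocyte markers split the TAE group. The 14 markers, all tested and none at 0, summed to 27337, 30633 and 33163 FPKM in HCC replicates 1 to 3 and to 16046, 11628 and 36091 FPKM in TAE replicates 1 to 3 (FPKM is the fragment count scaled by exonic length and library total). None of the 14 passed the test, and their median level relative to the HCC mean was -0.76, -1.45 and 0.24 (log2) in the 3 TAE libraries. The 12 macrophage markers summed to 1648 to 1926 FPKM in HCC and 4467 to 6792 FPKM in TAE, a sum to which Lyz2 gave most (801 FPKM in HCC and 3226 in TAE on average). Of the 12, 6 were higher (Cd68, Csf1r, Lyz2, Gpnmb, Trem2 and Msr1), while Marco, Cd163 and Clec4f, markers of resident macrophages, had negative changes (-0.05, -0.10 and -0.38). Those resident markers were below every HCC library in TAE replicate 2 and above every HCC library in TAE replicate 3. The 8 stellate cell and fibroblast markers summed to 446 to 710 FPKM in HCC and 1137 to 3007 FPKM in TAE. All 8 had positive changes (median 1.56), of which only Lum passed the test. The edgeR calls of macrophage and stellate cell markers were lost without any 1 HCC library, without TAE replicate 1 and with a replicate block. Those fits called 0.00% to 0.00681% of all genes lower and 0.00% higher, so the loss says nothing particular about the markers. DESeq2 called 9 of the 12 macrophage and all 8 stellate cell markers higher, against 10.2% of all genes. In bulk tissue, fewer cells of a type and less RNA per cell cannot be told apart, and the part of tissue composition in the values below was not tested except where a value is given. Eif2s3y, a Y-linked gene, was detected in every library, at 17.5 to 21.1 FPKM in HCC and 28.7 to 45.5 FPKM in TAE. Kdm5d, also Y-linked, was at 3.29 to 3.59 and 4.32 to 7.11 FPKM, and Ddx3y at 0.08 to 0.24 FPKM in all 6 libraries.

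Most of the tested P450 genes had lower means after embolization, but few differed beyond the spread of the libraries. Cyp3a9, a steroid hydroxylase that is more abundant in female rats, fell and was the 1 gene of the 31 to pass edgeR's quasi-likelihood test at an adjusted p of 0.05. That is 3.23% of these genes, against 0.310% of all tested genes that were lower in TAE. None of the 31 passed as higher, against 2.70% of all genes, and 3 had a positive change with an unadjusted p under 0.05 (Cyp1b1, Cyp2u1 and Cyp4f18). In all, 22 of the 31 had a negative log2 change (71.0%, against 53.1% of all tested genes), with a median of -0.58 against -0.03 over all genes. Both depended on single libraries: without TAE replicate 2 the median was -0.23 with 54.8% negative (50.4% of all genes), and without TAE replicate 3 it was -0.97 with 80.6% negative (49.9% of all genes). An unadjusted p under 0.05 in this edgeR fit was reached by 25.8% of these genes, close to the 22.7% of all genes. That closeness depended on the setting. The shares were 41.9% against 20.7% with library totals as scaling. With limma on log2(FPKM + 1), which tested 29 of these genes and 14803 in all, the shares were 55.2% against 20.0%. With edgeR they were 67.7% against 25.5% without TAE replicate 3 and 32.3% against 39.9% without TAE replicate 2.

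**Figure D1:**
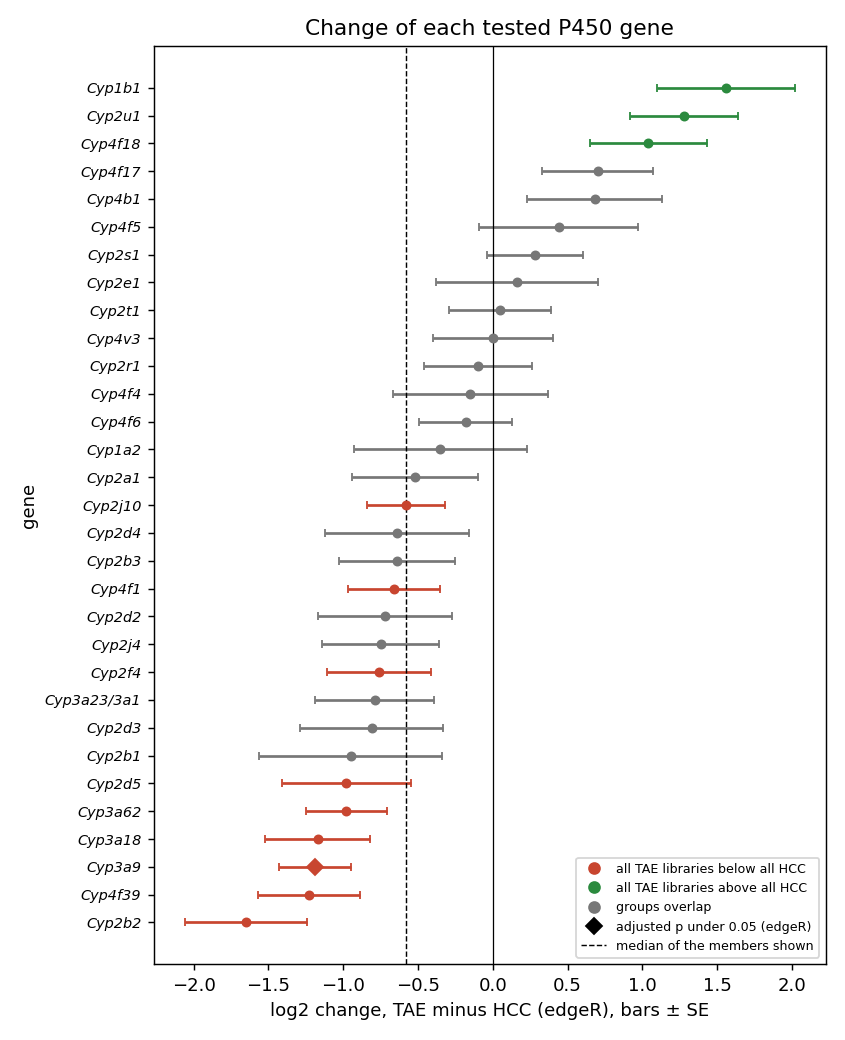
Log2 change of the 31 tested P450 genes, TAE minus HCC, with the standard error as bars. Points are coloured by whether the FPKM values of the groups overlap, the diamond marks Cyp3a9, the gene with an adjusted p under 0.05, and the dashed line is the median of -0.58.

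The number of genes called depended on single libraries. Without TAE replicate 3, edgeR called 14 of the 31 lower (45.2%, against 3.51% of all genes) and 0 higher (against 4.82%, with 3 positive at an unadjusted p under 0.05), and 11 of the 14 hepatocyte markers were called lower in the same fit. Without TAE replicate 2, 3 were called lower (Cyp3a9, Cyp3a18 and Cyp4f39, against 9.56% of all genes) and 3 higher (Cyp1b1, Cyp2u1 and Cyp4f18, against 14.6%), and 0 hepatocyte markers were called. Without any single HCC library or without TAE replicate 1, edgeR called 0 of the 31, while 7 or 8 had an unadjusted p under 0.05. These fits called next to nothing in the whole table (0.00%, 0.00675%, 0.00% and 0.00681% of all genes lower and 0.00% higher, with 13.5% to 15.1% of all genes at an unadjusted p under 0.05), so the 0 says nothing particular about the P450 genes. A replicate block called 0 of the 31 and 0.00% of all genes. Scaling by library totals called 3 lower (against 0.517% of all genes) and 0 higher (against 6.63%), and using no filter on low counts called 2 lower (against 0.319%) and 0 higher (against 3.51%). DESeq2 on all libraries called 5 lower (Cyp2b2, Cyp3a9, Cyp3a18, Cyp3a62 and Cyp4f39, against 1.99% of all genes) and 2 higher (Cyp1b1 and Cyp2u1, against 10.2%). A fit that weighted libraries by their quality (limma voom) gave HCC replicate 1 a weight of 1.05, TAE replicates 2 and 3 weights of 0.225 and 0.226 and the others 2.36 to 2.91, and called 16 lower (against 19.5%) and 4 higher (against 21.7%).

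The levels per library showed the same split. FPKM of every TAE library lay below that of every HCC library for 9 of the 31 genes (29.0%, against 5.54% of all tested genes) and above it for 3 (9.68%, against 21.9%). After TMM scaling, which allows for the makeup of each library, 5 remained below (Cyp2b2, Cyp3a9, Cyp3a18, Cyp3a62 and Cyp4f39, 16.1% against 13.4% of all genes), and Cyp2d5, Cyp2f4, Cyp2j10 and Cyp4f1 overlapped. The same 3 genes stayed above (9.68% against 18.6%). The median of the 31 genes relative to the HCC mean (log2) was -0.68 in TAE replicate 1, -1.22 in TAE replicate 2 and -0.03 in TAE replicate 3, against 0.07, 0.19 and -0.14 for all tested genes. TAE replicate 2 held the lowest value of all 6 libraries for 22 of the 31, and TAE replicate 3 was the highest of the TAE libraries for 24. Counts of the 37 genes made up 0.254% to 0.301% of each HCC library, and 0.161%, 0.111% and 0.296% of TAE replicates 1 to 3.

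**Figure D2:**
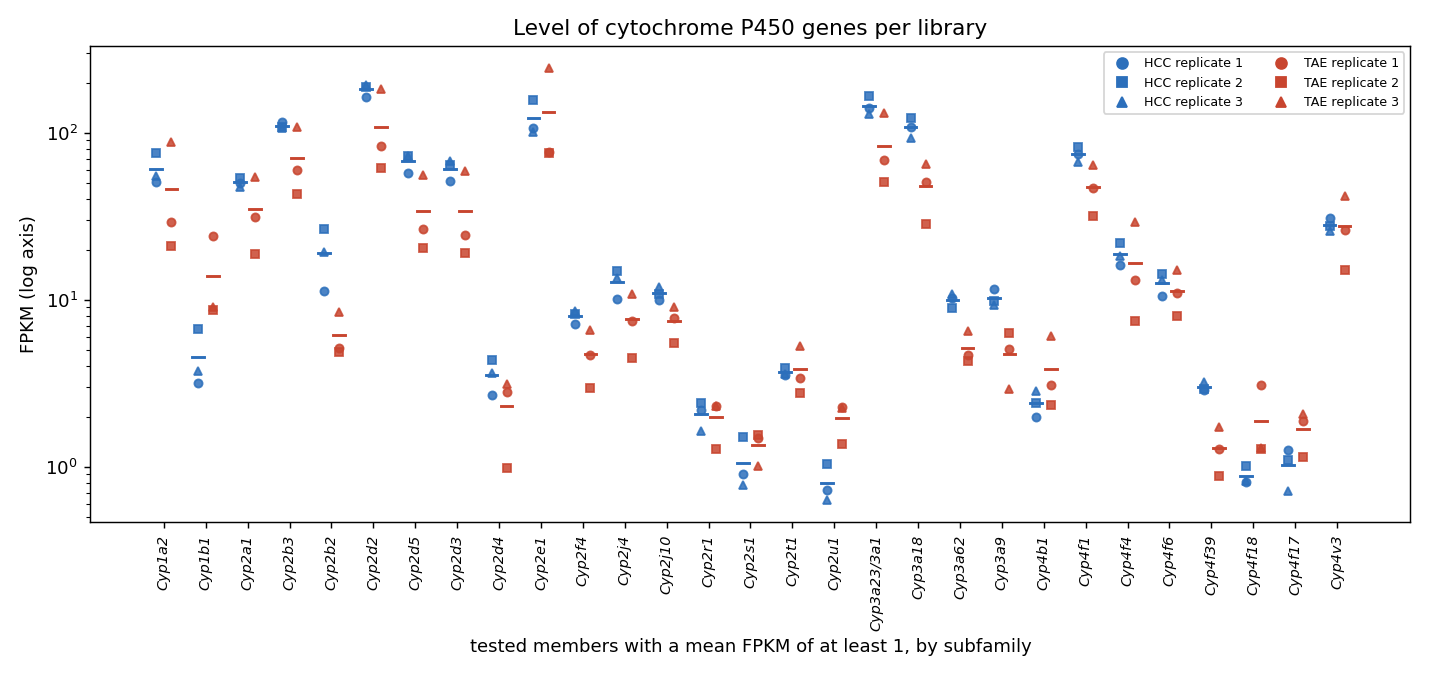
FPKM on a log axis of the tested P450 genes with a mean of at least 1 FPKM, in each of the 3 HCC and 3 TAE libraries, with the group mean as a line. TAE replicate 3 (triangles) lies among the HCC values for many abundant genes, such as Cyp2d2 at 182 FPKM, whereas Cyp2b2, Cyp3a9 and Cyp4f39 are below HCC in all 3 TAE libraries.

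The Cyp3a subfamily, whose enzymes hydroxylate steroids and many drugs, had lower TAE means for all its 4 members, and 3 of them did not overlap between groups. Cyp3a9 (gene ENSRNOG00000046643) stood at 11.6, 9.89 and 9.26 FPKM in HCC and 5.04, 6.30 and 2.91 FPKM in TAE replicates 1 to 3. It was lower in 3 of 3 TAE libraries and, unlike the hepatocyte markers, lowest in TAE replicate 3. The log2 change was -1.19 ± 0.24 (SE), from 10.2 ± 1.18 to 4.75 ± 1.71 FPKM (mean ± SD, n = 3 per group, edgeR adjusted p = 0.0488). The call was close to the threshold: adjusted p ran from 0.000231 with DESeq2 to 0.224 without HCC replicate 3, and it was missed without any 1 HCC library (0.155 to 0.224), without TAE replicate 1 (0.152), with library totals as the scaling (0.0669), with limma on log2(FPKM + 1) (0.0643) and with a replicate block (0.135).

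The other Cyp3a genes did not pass. Cyp3a18, a hydroxylase of testosterone more abundant in male rats, stood at 109, 123 and 92.7 FPKM in HCC and 51.0, 28.3 and 65.0 FPKM in TAE. All TAE values were below HCC, with a log2 change of -1.17 ± 0.35 (edgeR adjusted p = 0.117, and 0.0196 with DESeq2). Cyp3a62, expressed in liver and intestine, stood at 10.2, 8.91 and 10.9 FPKM in HCC and 4.65, 4.30 and 6.46 FPKM in TAE, again without overlap (-0.98 ± 0.27, edgeR adjusted p = 0.0944). Cyp3a23/3a1, the member induced by dexamethasone and pregnenolone compounds and the most abundant of the 4, stood at 141, 166 and 129 FPKM in HCC and 68.5, 51.1 and 131 FPKM in TAE. Its 2 lower TAE values were well under HCC, while TAE replicate 3 was within the HCC range (-0.79 ± 0.40, edgeR adjusted p = 0.286).

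The sequences before the start sites of the 4 Cyp3a genes are shown because all 4 genes had lower TAE means. The same was true of the 4 Cyp2d genes, whose sequences are not shown. Each sequence is 250 bases from RefSeq on GRCr8, on the strand of the gene. Capitals mark matches to AGTTCA, a half-site of the kind bound by PXR and CAR, to AGGTCA, a general nuclear receptor half-site, to TATAAA and to GCGTG, the core bound by AHR with ARNT, each searched on both strands. None of these motifs contains another. Cyp3a9 and Cyp3a62 each held 1 match to AGTTCA, and Cyp3a18 held 2.

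Cyp3a9 (GRCr8 chr12:21960161-21960410, minus strand): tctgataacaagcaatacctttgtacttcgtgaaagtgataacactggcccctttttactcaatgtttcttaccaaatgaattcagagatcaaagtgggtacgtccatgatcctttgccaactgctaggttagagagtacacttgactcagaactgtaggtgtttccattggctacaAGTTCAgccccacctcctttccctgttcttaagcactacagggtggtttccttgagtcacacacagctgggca

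Cyp3a18 (GRCr8 chr12:13994062-13994311, plus strand): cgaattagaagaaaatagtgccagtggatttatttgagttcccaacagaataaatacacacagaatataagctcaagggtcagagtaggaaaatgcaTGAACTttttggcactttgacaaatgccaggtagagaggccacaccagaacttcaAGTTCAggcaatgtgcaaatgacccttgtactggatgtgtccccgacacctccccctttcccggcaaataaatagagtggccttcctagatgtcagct

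Cyp3a62 (GRCr8 chr12:21511513-21511762, plus strand): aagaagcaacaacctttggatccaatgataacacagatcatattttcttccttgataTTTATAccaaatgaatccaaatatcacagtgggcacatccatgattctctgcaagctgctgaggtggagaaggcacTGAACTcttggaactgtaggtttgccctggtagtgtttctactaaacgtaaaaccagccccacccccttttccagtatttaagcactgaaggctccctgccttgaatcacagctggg

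Cyp3a23/3a1 (GRCr8 chr12:14398804-14399053, minus strand): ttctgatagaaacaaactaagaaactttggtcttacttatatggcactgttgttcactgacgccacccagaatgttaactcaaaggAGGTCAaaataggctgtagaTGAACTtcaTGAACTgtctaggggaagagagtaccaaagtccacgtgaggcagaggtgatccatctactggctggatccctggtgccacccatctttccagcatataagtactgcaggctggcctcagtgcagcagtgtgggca

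All 4 windows held AGTTCA, which 5 of the 26 tested P450 genes with a promoter in the table held (19.2%) and 12.2% of all 33469 promoter windows. The fifth was Cyp2j4. AGTTCA was absent from the windows of the 4 Cyp2d genes, Cyp2b2 and Cyp4f39, which also had lower TAE means. Cyp3a23/3a1 held 2 matches in the same orientation with 3 bases between them, and as background a direct repeat of this half-site in this gene is a classic element for PXR. The Cyp3a62 and Cyp3a9 windows were 64.3% identical over the columns of a global alignment. A match is a description of letters and not evidence of binding. Shares for the other motifs among the 26 were 23.1% for TATAAA (12.9% of all windows), 19.2% for AGGTCA (14.1%) and 34.6% for GCGTG (25.9%).

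Cyp2b2, the phenobarbital-inducible enzyme of rat liver, was lower in 3 of 3 TAE libraries. It stood at 11.3, 26.5 and 19.3 FPKM in HCC and 5.11, 4.85 and 8.44 FPKM in TAE replicates 1 to 3. All TAE values were below all HCC values, the HCC values spread widely, and the change was -1.65 ± 0.41 (edgeR adjusted p = 0.0747, and 0.00207 with DESeq2). Cyp2b3, a close relative that is expressed without induction, stood at 117, 108 and 107 FPKM in HCC and 59.9, 42.8 and 108 FPKM in TAE. TAE replicate 3 was thus at the HCC level for Cyp2b3 (-0.64 ± 0.39, edgeR adjusted p = 0.345) but below it for Cyp2b2. Whether the change differed between these genes was not tested.

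The windows before the starts of this pair are shown because the genes lie near each other on chromosome 1 and had unlike levels in TAE replicate 3. Their 250 bases were 49.8% identical, where pairs of windows within a subfamily ranged from 42.4% to 84.3%. GCGTG, which 25.9% of all windows held, was found in the first only. Whether the windows bear on the levels was not tested.

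Cyp2b2 (GRCr8 chr1:90722031-90722280, plus strand): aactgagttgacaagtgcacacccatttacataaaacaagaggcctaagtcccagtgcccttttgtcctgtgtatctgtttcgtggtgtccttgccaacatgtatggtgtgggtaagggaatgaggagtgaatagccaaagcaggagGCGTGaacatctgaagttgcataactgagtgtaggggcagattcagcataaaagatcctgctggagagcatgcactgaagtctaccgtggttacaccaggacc

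Cyp2b3 (GRCr8 chr1:90780242-90780491, plus strand): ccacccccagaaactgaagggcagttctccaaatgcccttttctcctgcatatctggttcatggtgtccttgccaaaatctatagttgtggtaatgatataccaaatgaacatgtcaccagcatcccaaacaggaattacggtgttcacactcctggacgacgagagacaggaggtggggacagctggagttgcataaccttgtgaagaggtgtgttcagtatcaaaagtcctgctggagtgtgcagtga

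Cyp2b1, the other phenobarbital-inducible gene, stood at 0.13 to 0.71 FPKM in all libraries, with 5 to 24 counts each. The deposited table places its row on chromosome 7, whereas RefSeq has Cyp2b1 on chromosome 1, as Cyp2b2, and the other 36 genes were on the same chromosome in both. What the Cyp2b1 row counts is therefore uncertain, and the Cyp2b1 and Cyp2b2 windows were 84.3% identical. Reads of such close copies could have been split between rows by the counting, in this subfamily as in Cyp2d, Cyp3a and Cyp4f.

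Cyp2a1, a testosterone hydroxylase, stood at 50.1, 53.6 and 47.6 FPKM in HCC and 31.4, 18.8 and 54.6 FPKM in TAE. It followed the pattern of Cyp2b3, low in TAE replicates 1 and 2 and at the HCC level in TAE replicate 3 (-0.52 ± 0.42, edgeR adjusted p = 0.466). Cyp2f4, known for naphthalene metabolism in lung, stood at 7.19 to 8.53 FPKM in HCC and 4.69, 2.97 and 6.57 FPKM in TAE (-0.76 ± 0.35, edgeR adjusted p = 0.253). Cyp2s1, an epithelial P450, and Cyp2t1 had changes of 0.28 ± 0.32 and 0.05 ± 0.34, with overlapping groups. In the deposited table Cyp2t1 overlaps Egln2 on the other strand, and whether counting used strand is not stated, so that reads of this pair cannot be told apart.

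The 4 Cyp2d genes, relatives of the human debrisoquine hydroxylase that metabolises many drugs, were all lower in their TAE mean and none passed. Cyp2d2, which had the highest mean of the 37 genes over all 6 libraries (145 FPKM, followed by 127 for Cyp2e1, which was the higher of the pair in the TAE mean), stood at 164, 189 and 192 FPKM in HCC and 83.4, 61.3 and 182 FPKM in TAE (-0.72 ± 0.45, edgeR adjusted p = 0.358). TAE replicates 1 and 2 were far under every HCC library, and TAE replicate 3 was among the HCC values. Cyp2d3 stood at 51.2, 64.5 and 67.4 FPKM in HCC and 24.6, 19.1 and 58.9 FPKM in TAE (-0.81 ± 0.48). Cyp2d5 stood at 57.8, 73.1 and 73.0 FPKM in HCC and 26.4, 20.4 and 55.8 FPKM in TAE, and TAE replicate 3 was just under the lowest HCC value (-0.98 ± 0.43, edgeR adjusted p = 0.232). Cyp2d4, the member best known from brain, had 0.99 to 4.35 FPKM. Without TAE replicate 3, Cyp2d2, Cyp2d3 and Cyp2d5 were among the 14 called lower.

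Cyp2e1 and Cyp1a2, both typical of hepatocytes near the central vein, were above every HCC library in TAE replicate 3. That held for 13 of the 31 P450 genes, 8 of the 14 hepatocyte markers and 4947 of the 14499 genes tested. Cyp2e1, which oxidises ethanol and small solvents, stood at 107, 158 and 102 FPKM in HCC and 76.4, 75.8 and 246 FPKM in TAE. TAE replicates 1 and 2 were below every HCC library and TAE replicate 3 above every one, and the log2 change of 0.16 ± 0.54 became -0.80 without TAE replicate 3 (edgeR adjusted p = 0.0557). Cyp1a2, which oxidises caffeine and arylamines, stood at 50.5, 75.8 and 55.3 FPKM in HCC and 29.1, 20.9 and 88.3 FPKM in TAE (-0.35 ± 0.58, edgeR adjusted p = 0.725), and its change was 0.04 without TAE replicate 2 and -1.39 without TAE replicate 3. Of the 8 tested pericentral markers none passed, and their median relative to the HCC mean was 0.16, -0.29 and 0.88 in TAE replicates 1 to 3. For the 9 periportal markers, none of which passed, it was -0.46, -0.62 and -0.07. Cyp2e1 overlaps Syce1 on the other strand in the table, with the same limit as for Cyp2t1.

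In Cyp1b1, Cyp2u1 and Cyp4f18 every TAE library was above every HCC library, and none passed. Cyp1b1, which hydroxylates oestradiol and is known mostly from cells other than hepatocytes, stood at 3.19, 6.65 and 3.76 FPKM in HCC and 24.1, 8.67 and 9.0 FPKM in TAE. Every TAE value was above every HCC value and TAE replicate 1 was the highest, with a change of 1.56 ± 0.46 (edgeR adjusted p = 0.111, and 0.0105 with DESeq2) that was 0.95 without TAE replicate 1. The summed stellate cell and fibroblast markers were highest in the same library, at 3007 FPKM against 1137 and 1459 FPKM in TAE replicates 2 and 3. Col1a1 (967 FPKM) and Col3a1 (1468 FPKM) gave most of the sum in TAE replicate 1. Only Lum of the list was higher in TAE replicate 3 (85.4 against 80.5 FPKM). The part of these markers in the Cyp1b1 value was not tested. The window before the Cyp1b1 start, shown because this gene is a classic AHR target, held 2 matches to GCGTG.

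Cyp1b1 (GRCr8 chr6:21094315-21094564, plus strand): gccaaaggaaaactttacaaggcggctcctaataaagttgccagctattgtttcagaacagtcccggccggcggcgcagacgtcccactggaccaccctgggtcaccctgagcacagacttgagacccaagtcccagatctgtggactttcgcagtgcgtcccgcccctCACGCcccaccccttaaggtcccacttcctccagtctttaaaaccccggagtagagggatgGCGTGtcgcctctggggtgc

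Cyp1a1, the other classic AHR target among these genes, had 2 to 5 counts in HCC libraries and 2 to 7 in TAE libraries, too few to test. The 4 further AHR targets (Nqo1, Tiparp, Aldh3a1 and Ugt1a6) all had negative changes and none passed. Nqo1, a quinone reductase, had 50.2, 43.5 and 45.2 FPKM in HCC and 24.5, 46.3 and 32.0 FPKM in TAE. Ahr itself was at 18.3 ± 3.47 FPKM in HCC and 20.9 ± 3.03 FPKM in TAE (0.14 ± 0.18).

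Cyp2u1, a hydroxylase of long-chain fatty acids, stood at 0.73, 1.04 and 0.63 FPKM in HCC and 2.29, 1.36 and 2.26 FPKM in TAE, all above HCC (1.28 ± 0.36, edgeR adjusted p = 0.105, and 0.0195 with DESeq2). Cyp4f18, whose mouse counterpart inactivates leukotriene B4 in neutrophils, stood at 0.81, 1.01 and 0.82 FPKM in HCC and 3.08, 1.28 and 1.30 FPKM in TAE. TAE replicate 1 stood apart, and the change of 1.04 ± 0.39 (edgeR adjusted p = 0.184) was 0.53 without it. Of 6 neutrophil markers 2 were higher in TAE (Ncf1 and Itgam, which macrophages also express) and Cxcr2 had a change of -0.10. The list summed to 48.7 to 83.1 FPKM in HCC and 204, 112 and 220 FPKM in TAE replicates 1 to 3, and its part in Cyp4f18 was not tested.

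The remaining Cyp4 genes had changes of both signs and none passed. Cyp4f1, which hydroxylates fatty acids and leukotriene B4, was the most abundant of them at 75.0, 82.8 and 66.6 FPKM in HCC and 46.5, 32.0 and 64.2 FPKM in TAE, with TAE replicate 3 just under the lowest HCC library (-0.66 ± 0.31, edgeR adjusted p = 0.257). Cyp4f39, related to the enzyme that hydroxylates very long fatty acids for the skin barrier, was at a low but steady level of 2.89, 2.94 and 3.22 FPKM in HCC and at 1.28, 0.88 and 1.74 FPKM in TAE. It was lower in 3 of 3 TAE libraries by FPKM and by TMM-scaled CPM (-1.23 ± 0.34, edgeR adjusted p = 0.0954). Cyp4f4 (16.2 to 21.9 FPKM in HCC and 7.43 to 29.2 in TAE) and Cyp4f6 (10.5 to 14.4 and 7.97 to 15.0) overlapped between groups. Cyp4v3, a fatty acid hydroxylase, stood at 30.8, 27.6 and 25.9 FPKM in HCC and 26.2, 15.2 and 42.0 FPKM in TAE, with a log2 change of -0.00 ± 0.40 and a sign that changed with the setting. Cyp4b1, best known from lung, had 1.98 to 2.84 FPKM in HCC and 3.07, 2.36 and 6.11 FPKM in TAE (0.68 ± 0.45). Cyp4f17 and Cyp4f5 overlap each other on the same strand in the table and are uncertain as single genes, with changes of 0.70 ± 0.37 and 0.44 ± 0.53.

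Of the Cyp2j epoxygenases, Cyp2j4 stood at 10.1 to 14.9 FPKM in HCC and 7.50, 4.49 and 10.9 FPKM in TAE (-0.75 ± 0.39) and Cyp2j10 at 10.0 to 12.0 FPKM in HCC and 7.80, 5.48 and 9.0 FPKM in TAE (-0.58 ± 0.26), neither of them past the threshold. Cyp2r1, a vitamin D hydroxylase, was at 2.08 ± 0.405 FPKM in HCC and 1.97 ± 0.600 FPKM in TAE. The 6 genes that were not tested had at most 17 counts in any library (Cyp1a1, Cyp2ab1, Cyp2b12, Cyp4f37, Cyp4f40 and Cyp4x1). Cyp4f37 reached its 17 counts in TAE replicate 1 and had 1 to 4 in every other library. Counting error is large at such depths, and no difference was detectable there.

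Summing FPKM within a subfamily lessens the effect of how reads were split between its copies. Of the 16 subfamilies with a summed mean of at least 1 FPKM in either group, 10 had a lower mean in TAE. Cyp2d summed to 314 ± 33.5 FPKM in HCC and 180 ± 106 in TAE, and Cyp3a to 274 ± 33.2 and 141 ± 58.6. The Cyp2d sum in TAE replicate 3 (300 FPKM) lay within the HCC range of 276 to 336, whereas the Cyp3a sum in that library (205 FPKM) stayed below the lowest HCC sum of 242. Groups did not overlap for Cyp2b (127 to 135 against 47.9 to 117), Cyp2f, Cyp2j and Cyp3a, all lower, and for Cyp1b and Cyp2u, both higher and each of 1 gene. By TMM-scaled CPM the groups overlapped for Cyp2b (263 to 272 in HCC against 86.6 to 270 in TAE), Cyp2f and Cyp2j, which left 1 of the 4 (Cyp3a) below, and Cyp1b and Cyp2u stayed above. All 37 genes together summed to 1138 ± 112 FPKM in HCC and to 629, 452 and 1220 FPKM in TAE replicates 1 to 3, so that their total in TAE replicate 3 was within the HCC range of 1061 to 1267.

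**Figure D3:**
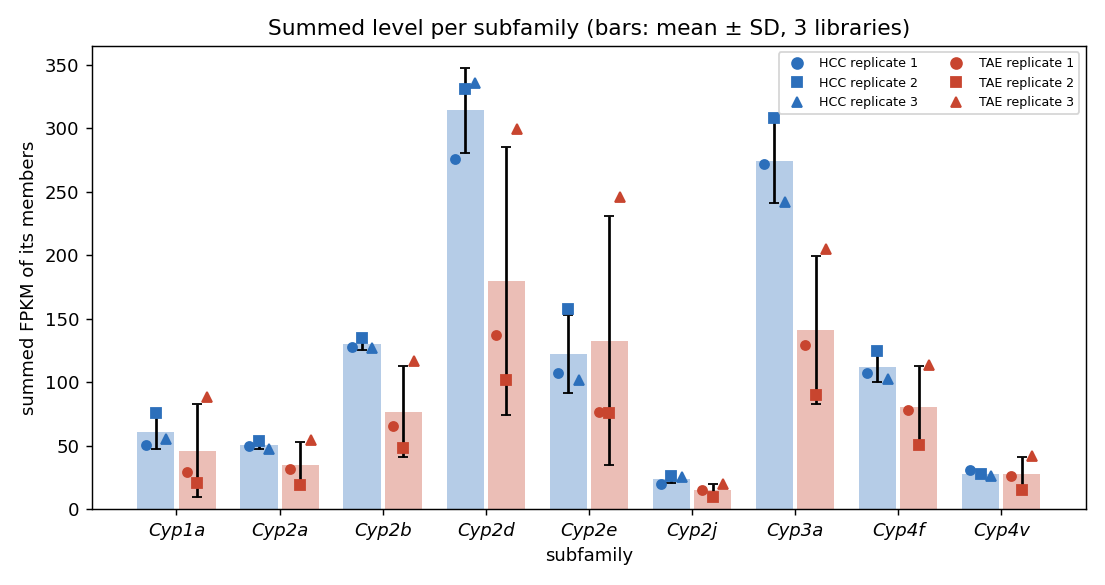
Summed FPKM of the subfamilies with a mean of at least 20 FPKM in either group, per library, with bars for the mean and error bars for the SD of 3 libraries. In TAE replicate 3 (triangles) Cyp2d reaches 300 FPKM, within HCC, while Cyp3a at 205 FPKM stays below the HCC values.

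Set against the hepatocyte markers of the same library, the genes showed several patterns. This description was added after the values were seen. Each gene's log2 level over its HCC mean was compared with the median of the 14 markers. In all 3 TAE libraries 8 of the 31 genes were below that median (25.8%, against 1.17% of all tested genes: Cyp2b2, Cyp2d2, Cyp2d3, Cyp2d5, Cyp2j4, Cyp3a18, Cyp3a23/3a1 and Cyp4f39), and 11 were above it (35.5%, against 28.8%), among them Cyp1b1, Cyp2e1, Cyp2u1 and Cyp4v3. HCC libraries varied around it too, and for Cyp2b2, Cyp2j4 and Cyp3a23/3a1 an HCC library was further below than a TAE library. That left 5 genes lower against the markers in every TAE library than in any HCC library (16.1%, against 0.572% of all genes). Of these, Cyp2d2 and Cyp2d3 were level with an HCC library to 2 decimals. In TAE replicates 1 and 2 the marker median was -0.76 and -1.45, against 0.07 and 0.19 for all tested genes. Few genes of any kind could therefore lie below the markers in every TAE library. These contrasts cannot set the P450 genes apart from other hepatocyte genes. Cyp2b2 was at -1.14, -0.53 and -1.41 in TAE replicates 1 to 3, beside -0.73 in HCC replicate 1, and Cyp3a18 was at -0.33, -0.49 and -0.98, beside -0.23 to 0.16 in HCC. Differences were small for Cyp2a1 (0.07, 0.02 and -0.13) and Cyp2b3 (-0.13, 0.08 and -0.27), which kept close to the markers in each library. Cyp3a9 was 0.75 above them in TAE replicate 2 and 2.06 below them in TAE replicate 3.

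**Figure D4:**
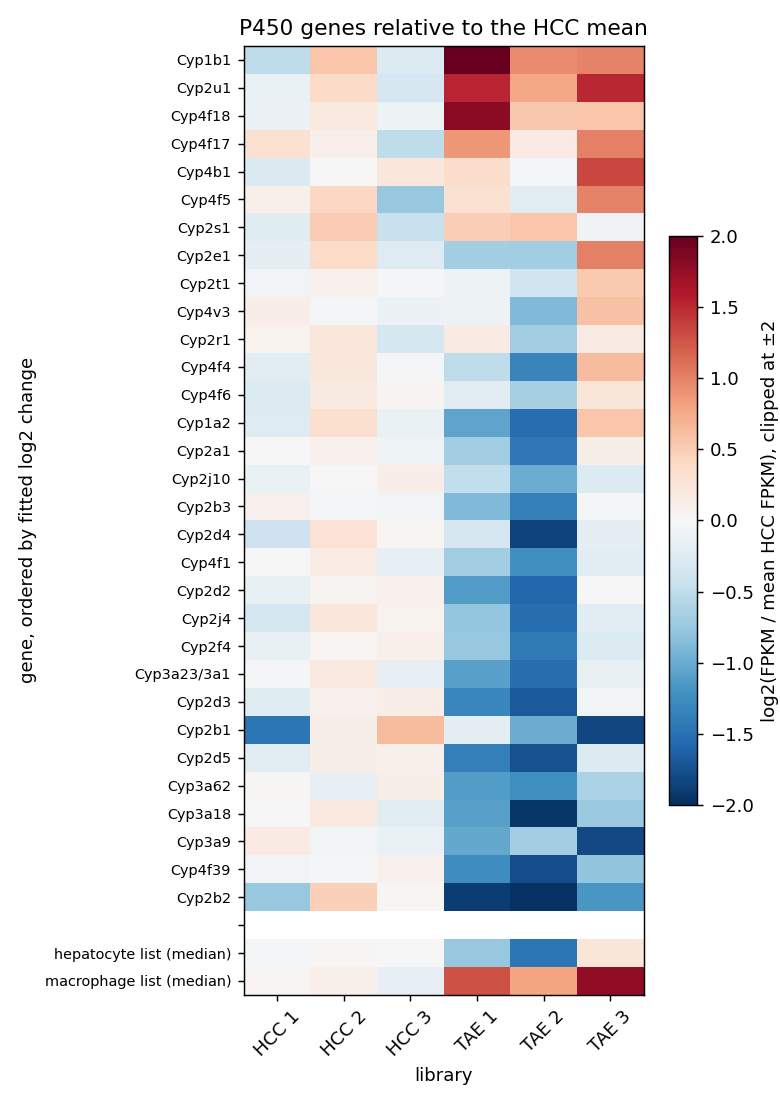
Log2 of FPKM over the mean HCC FPKM for the 31 tested P450 genes in each library, clipped at 2 on either side, above the medians of the hepatocyte and macrophage lists. Many genes are blue in TAE replicates 1 and 2 and pale in TAE replicate 3, as are the hepatocyte markers (-0.76, -1.45 and 0.24), while Cyp3a9, Cyp3a18, Cyp4f39 and Cyp2b2 at the lower end are blue in all 3.

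Genes that serve or control these enzymes gave no call. None of 8 redox partners passed (5 negative and 3 positive changes, median -0.26). Por, the reductase that supplies electrons to all these P450s, stood at 41.7, 41.8 and 45.8 FPKM in HCC and 46.8, 53.7 and 45.4 FPKM in TAE (0.12 ± 0.12), so that it was not low in the libraries where the P450 genes were. Cyb5a, the cytochrome b5 that assists some of them, had 238, 274 and 225 FPKM in HCC and 160, 131 and 255 FPKM in TAE, with TAE replicates 1 and 2 low (-0.44 ± 0.32). Pgrmc1, a heme-binding partner, stood at 246 ± 14.3 and 166 ± 36.8 FPKM (-0.58 ± 0.24, edgeR adjusted p = 0.208), and Pgrmc2 at 72.2 ± 3.56 and 58.3 ± 3.46 FPKM.

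None of 11 genes of heme synthesis and breakdown passed (median -0.07). Alas1, the rate-limiting enzyme of heme synthesis in liver, was at 29.9 ± 0.645 FPKM in HCC and 32.9 ± 4.10 FPKM in TAE. Hmox1, which degrades heme and is also abundant in macrophages, stood at 63.2, 74.5 and 67.3 FPKM in HCC and 167, 117 and 276 FPKM in TAE, all above HCC (1.46 ± 0.37, edgeR adjusted p = 0.0804). Blvra and Blvrb, which reduce biliverdin, had changes of 0.62 ± 0.22 and -0.24 ± 0.16.

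None of 23 regulators passed (15 negative and 8 positive, median -0.23). Nr1i2, which encodes PXR, stood at 14.8, 17.0 and 15.2 FPKM in HCC and 8.27, 6.04 and 23.2 FPKM in TAE, low in TAE replicates 1 and 2 and high in TAE replicate 3 like Cyp1a2 and Cyp2e1 (-0.29 ± 0.53). Nr1i3, which encodes CAR, had 8.04, 11.8 and 10.5 FPKM in HCC and 5.47, 6.06 and 11.9 FPKM in TAE. The most abundant regulators were Nr1h3, the liver X receptor alpha (54.8 ± 3.48 and 45.5 ± 9.63 FPKM), Cebpa (33.9 ± 3.88 and 44.3 ± 14.9 FPKM) and Cebpb (40.4 ± 2.81 and 37.5 ± 6.75 FPKM). These counts of 0 depended on single libraries. Without TAE replicate 3, edgeR called 3 of 8 redox partners, 1 of 11 heme genes and 4 of 23 regulators lower (against 3.51% of all genes). In the same fit 1 heme gene was called higher (against 4.82%). Without TAE replicate 2 it called 2 heme genes and 2 regulators higher (against 14.6%) and 2 of 4 AHR targets lower (against 9.56%). DESeq2 on all libraries called 1 heme gene and 1 regulator higher (against 10.2%) and 0 redox partners and AHR targets. Acute-phase genes, 8 of them tested, had no call and a median change of 0.25. DESeq2 called 2 of them higher (against 10.2% of all genes), and edgeR called 3 higher without TAE replicate 2 (against 14.6%). Without TAE replicate 3 it called 1 higher (against 4.82%) and 1 lower (against 3.51%).

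Of 13 tested P450 genes outside families 1 to 4, 1 rose and 12 did not pass. Tbxas1, the thromboxane synthase of platelets and macrophages, rose from 7.59, 9.06 and 8.40 FPKM in HCC to 31.9, 24.0 and 38.8 FPKM in TAE. Every TAE library was above every HCC library (1.90 ± 0.26 on the log2 scale, edgeR adjusted p = 0.0388). The call was lost without any 1 HCC library (0.142 to 0.223), without TAE replicate 1 (0.145) and with a replicate block (0.135). Those edgeR fits called next to nothing in the whole table, so the loss says nothing particular about Tbxas1. DESeq2 gave an adjusted p of 5.63e-08. Of the 12 macrophage markers 9 had positive and 3 negative changes, and their part in the Tbxas1 value was not tested. Among the P450 genes outside families 1 to 4, DESeq2 called 2 lower (against 1.99% of all genes). With edgeR, 3 were called lower without TAE replicate 3 (against 3.51%) and 1 without TAE replicate 2 (against 9.56%). Cyp51, of cholesterol synthesis, stood at 159 ± 11.3 and 109 ± 37.9 FPKM (-0.62 ± 0.20), Cyp27a1, of bile acid synthesis, at 44.3 ± 1.12 and 38.1 ± 23.5 FPKM, and Cyp20a1 at 32.8 ± 1.35 and 31.8 ± 8.07 FPKM.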

How the data were processed

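Per the file headers, the authors deposited 1 table of raw read counts and FPKM values for each gene in 6 rat liver libraries, 3 HCC and 3 TAE by title. The deposited FPKM values equal counts scaled by exonic size and summed library counts (100% within 0.006). The submitters' processing notes name mRatBN 7.2. Gene ends on chromosome 1 reach 282724300, so the build of the table's coordinates is unsettled and they are not printed. Per the labels' protocols, poly(A) RNA was made into stranded libraries. The aligner, counter, strand setting and handling of multi-mapped reads were not given in the sources used.

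Counts were fitted over the whole table with edgeR 4.0.16 (R 4.3.3, TMM, filterByExpr, quasi-likelihood test, TAE minus HCC, two-sided) and Benjamini-Hochberg adjustment over 14499 genes at 0.05. Standard errors are the size of each change over the root of its F statistic. DESeq2 1.42.0, limma 3.58.1, other scalings, no filter, a replicate block and leaving out each library were alternatives, and the fits were tested on simulated data. The P450 genes and gene lists were chosen with earlier results of these data known. Named P450 genes were those called, the most abundant per subfamily, the 8 largest changes and those of at least 20 FPKM. Others are named as further members. Of the related lists, called genes and up to 3 abundant ones are named, beside others picked for their function, and 26 of 31 tested genes had 1 RefSeq promoter (GRCr8). Depth was 13448286 to 16604067 counts per library. The lists used were redox partners, heme genes, regulators, AHR targets, other P450s, acute phase, sex-linked genes and markers of hepatocytes (also pericentral and periportal), macrophages, neutrophils, T and B cells, cholangiocytes, stellate cells, endothelium and tumour.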

Additional observations from a re-analysis of the deposited data

How the results depend on the processing

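The count of P450 genes called lower (1) was 5 with DESeq2, 3 with library totals as scaling, 2 without a filter on low counts, 16 with quality weights and 0 with a replicate block, and ranged from 0 to 14 when 1 library was left out. The count called higher (0, with 3 at an unadjusted p under 0.05) was 2 with DESeq2 and 4 with quality weights, and 0 to 3 without 1 library. For the related and marker lists together, 11 genes were called, against 36 with DESeq2, 23 with library totals, 18 with limma on log2(FPKM + 1), 21 without a filter, 93 with quality weights, 0 with the replicate block and 0 to 51 without 1 library. Shares of all tested genes called moved with the setting too. They were 0.310% lower and 2.70% higher in the main fit, and 1.99% and 10.2% with DESeq2. With library totals they were 0.517% and 6.63%, and with quality weights 19.5% and 21.7%. Without TAE replicate 2 they were 9.56% and 14.6%, without TAE replicate 3 3.51% and 4.82%, and with the block 0.00% both ways. Same-numbered libraries deviated from their group means at correlations of 0.100, -0.209 and 0.034, and differently numbered ones at -0.19 to 0.16. With 3 libraries per group, these values cannot decide whether the numbers pair the libraries. Groups of 9 genes did not overlap, lower in TAE, by FPKM, against 5 by TMM-scaled CPM and 9 to 19 without 1 library, and 3 were higher, against 3 to 5. Leaving out a library can only keep or raise such counts, so the values without 1 library cannot show whether they hold. The median change of -0.58 was -0.23 without TAE replicate 2 and -0.97 without TAE replicate 3. Signs changed for 5 named genes. Cyp2e1 (0.16) was -0.09 with limma on FPKM, -0.17 with the block, -0.64 with quality weights, 0.49 without TAE replicate 2 and -0.80 without TAE replicate 3. Cyp2r1 (-0.10) was 0.04 with quality weights and without HCC replicate 2, and 0.19 and -0.32 without TAE replicates 2 and 3. Cyp2t1 (0.05) was -0.04 with the block, -0.18 with quality weights, 0.30 without TAE replicate 2 and -0.36 without TAE replicate 3. Cyp4v3 (-0.00) was 0.00 with DESeq2, and 0.05, 0.08 and 0.34 without HCC replicate 1, TAE replicate 1 and TAE replicate 2, and -0.55 without TAE replicate 3. Cyp1a2 (-0.35) was 0.04 without TAE replicate 2 and -1.39 without TAE replicate 3. The cause was not tested. Lists not described above had 0 calls among 9 T and B cell, 7 endothelial, 9 periportal, 6 tumour and 2 sex-linked genes, and 1 (Cftr) among 6 cholangiocyte genes.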
